A study of Mus musculus with 10 samples.

Results

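The genes described here are 10 that mark the mesothelium and simple epithelia: Msln, Upk3b, Upk1b, Lrrn4, Wt1, Gpm6a and Muc16 for the mesothelium, and the keratins Krt8, Krt18 and Krt19 for simple epithelium. They were taken by gene symbol from the array's own annotation, and every probe of each was used. This gave 11 probes, 2 of Krt8 and 1 of each other gene, of 55681 probes and 34797 gene names in all.

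RNA was measured in epididymal white adipose tissue (WAT), a visceral fat pad, of 10 male wildtype C57BL/6JOlaHsd mice (entered as C57BL/6J in the strain field). The mice were 9 weeks of age at the start and were kept at 29°C throughout. They ate a low fat diet for 3 weeks and then a high fat diet (HFD) for 12 weeks, and afterwards received desferrioxamine (DFO), a drug that binds iron, at 100 mg/kg once a day for 5 days. They were killed on day 6 after 2 h without food. All 10 mice belonged to this 1 group. The labels also name a control group, which was not analysed here, so no value below is an effect of DFO or of diet.

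Each mouse was hybridised in the dye Cy5 on 1 array against a pool labelled with Cy3. The same pool went on every array. It combined RNA from each animal of the larger project, controls included. A log2 ratio is therefore the level in 1 mouse over that pool. The dyes were not swapped, so the sign of a ratio also holds any dye bias of the probe, and only differences between mice were read. The labels name 1 mouse per sample, and the statements below describe differences between these 10 mice.

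The mesothelium is the flat cell layer that covers the organs of the abdomen, visceral fat pads among them. Its cells carry mesothelin (Msln) and the mucin Muc16, which bind each other, and they contain the keratins 8, 18 and 19 although they derive from mesoderm. The same keratins fill the cells of simple epithelia such as those of ducts and glands, which lack mesothelin as a rule. Krt8, a type II keratin, pairs with Krt18, a type I keratin, in 1 filament. In RNA of whole tissue, fewer cells of a type and less RNA per cell cannot be told apart.

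The probes were 60 bases long, and their positions follow the array's design on the mm9 build. The Msln probe lay at chr17:25885569-25885628, that of Upk3b at chr5:136520522-136520581 and that of Upk1b at chr16:38773859-38773918. Those of Lrrn4 and Wt1 lay at chr2:132694490-132694549 and chr2:105013656-105013715. The Gpm6a probe lay at chr8:56145539-56145598 and the Muc16 probe at chr9:18299899-18299958. Of the keratins, Krt8 probe 1 lay at chr15:101827138-101827197, Krt8 probe 2 at chr15:101828827-101828886, Krt18 at chr15:101862341-101862400 and Krt19 at chr11:100002392-100002451. Which exon each probe lies in was not read from an annotation.

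Probe sequences are shown for the 5 probes below. The probes of Msln and Muc16 and probe 1 of Krt8 held the polyadenylation hexamer AATAAA, the signal for cleavage at the end of a transcript, in capitals in these windows of 30 bases. Krt8 probe 2 and the Krt19 probe held no such signal and are shown whole. They had 1 reading frame without a stop codon, but so did the Msln probe and Krt8 probe 1. An open frame therefore does not tell here what part of the transcript was read.
Msln: ggactcttgaactcAATAAAcagtggcata
Muc16: gggttcaaagaataAATAAAccacattggt
Krt8 probe 1: gttgtattttctaaAATAAAgcctcagctg
Krt8 probe 2: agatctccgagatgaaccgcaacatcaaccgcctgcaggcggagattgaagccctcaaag
Krt19: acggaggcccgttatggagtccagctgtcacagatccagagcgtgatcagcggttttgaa

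The promoter table of RefSeq (GRCm38.p6) held 7 promoters of 6 of the 10 genes. It listed none for Msln, Upk1b, Wt1 and Krt19. The 250 bases before the start are shown for the 5 promoters that held 1 of 2 motifs, while the promoter of Muc16 and the second of Gpm6a held neither and are not shown. Capitals mark CATTCC (or its reverse complement GGAATG), the core letters bound by TEAD factors, and CACCTG (or CAGGTG), a form of the E-box.
Upk3b, chr5:136038246-136038495, plus strand: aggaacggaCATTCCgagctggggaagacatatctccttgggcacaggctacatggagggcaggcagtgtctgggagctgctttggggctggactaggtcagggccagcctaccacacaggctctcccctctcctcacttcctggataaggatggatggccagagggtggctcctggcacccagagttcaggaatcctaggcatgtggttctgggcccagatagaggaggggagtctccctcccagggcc
Lrrn4, chr2:132880863-132881112, minus strand: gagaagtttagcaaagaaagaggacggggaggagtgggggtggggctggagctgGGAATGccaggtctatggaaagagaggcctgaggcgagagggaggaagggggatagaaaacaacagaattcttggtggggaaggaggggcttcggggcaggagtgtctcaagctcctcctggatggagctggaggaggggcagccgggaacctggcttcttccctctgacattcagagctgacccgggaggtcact
Gpm6a, chr8:54779184-54779433, plus strand: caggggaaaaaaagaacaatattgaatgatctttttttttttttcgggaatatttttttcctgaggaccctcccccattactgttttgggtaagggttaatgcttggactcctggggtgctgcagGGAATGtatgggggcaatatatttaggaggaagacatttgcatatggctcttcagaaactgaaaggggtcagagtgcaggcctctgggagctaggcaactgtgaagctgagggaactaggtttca
Krt8, chr15:102004343-102004592, minus strand: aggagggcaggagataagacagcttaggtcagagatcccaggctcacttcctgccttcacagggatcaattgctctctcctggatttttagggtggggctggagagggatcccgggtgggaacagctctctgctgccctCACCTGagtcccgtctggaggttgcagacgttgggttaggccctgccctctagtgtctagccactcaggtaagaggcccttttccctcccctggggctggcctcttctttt
Krt18, chr15:102027966-102028215, plus strand: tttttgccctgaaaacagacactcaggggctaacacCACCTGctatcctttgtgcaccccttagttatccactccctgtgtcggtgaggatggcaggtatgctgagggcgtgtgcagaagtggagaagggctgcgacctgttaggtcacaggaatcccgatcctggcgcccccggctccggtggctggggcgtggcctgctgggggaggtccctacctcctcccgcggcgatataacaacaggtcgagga

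CATTCC on either strand stood in 3 of the 7 promoters, those of Upk3b, Lrrn4 and 1 of the 2 of Gpm6a, against 12.6% of 32851 promoters of the same length. CACCTG stood in those of Krt8 and Krt18, against 17.2% of all. Of the other letters searched on both strands, TTCCTG (the ETS core) stood in 4 (25.7% of all) and TATAAA (the TATA box) in 1 of the 2 of Gpm6a (12.4%). GGGCGG (the GC box, 32.7%) and GCGTGGGCG (a site of WT1 and EGR factors, 0.536%) stood in none. No match overlapped one of another motif. These are matches of letters. Krt8 and Krt18 are neighbours on chromosome 15 on opposite strands, with 2 long noncoding RNA genes and no protein-coding gene between them in RefSeq.

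All 11 probes were well above background on 10 of 10 arrays in both dyes, and no spot was saturated. Over the arrays the median Cy5 brightness was 53 to 79 against a median local background of 32 to 37. By the first principal component of the log2 ratios of the 27716 expressed probes, which held 75.1% of their variance, mice 4, 5, 6 and 7 stood apart from the other 6. By the second, with 8.81%, mouse 2 lay at 0.93 and the other mice between -0.21 and 0.01. The adipocyte list of 8 genes had 7 expressed members, and its mean log2 ratio was -2.49 to -1.43 in mice 4 to 7 and -0.14 to 0.63 in the others. Its most variable members were Cfd, the serum protease adipsin (-4.69 in mouse 7 to 1.45 in mouse 10), and Adipoq, the hormone adiponectin (-2.78 in mouse 7 to 0.81 in mouse 9). The macrophage list, with 7 of 8 expressed, ran the other way: 0.80 to 1.10 in mice 4 to 7 and -1.34 to -0.04 in the others. Both lists thus parted mice 4 to 7 from the other 6, as many of the results that follow did. Mouse 2, at -0.14 for adipocytes and -0.04 for macrophages, lay with the other 6 in both, at the end nearest mice 4 to 7. The part of these lists in the results that follow was not tested.

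The 10 genes differed widely between mice. Their levels fell into 2 patterns, 1 of the 7 mesothelial genes and 1 of Krt8 and Krt18, with Krt19 between them. Mesothelial genes were low in mice 4 to 7, and highest in mice 8 and 10. Krt8 and Krt18 were low in mice 4 to 7 too, but their highest mouse was mouse 2, where most mesothelial genes were low.

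Msln, the membrane-anchored surface protein of mesothelial cells, had a log2 ratio of -2.10 in mouse 4, the lowest, a median of -0.63 and 0.68 in mouse 8, the highest. Its uncorrected Cy5 brightness ran from 615 to 7430. Mouse 10, at 0.61, was close to mouse 8, and mice 4, 5, 6 and 7, at -2.10, -1.37, -1.74 and -1.27, were all below mouse 2 at -0.96. The whole range was 6.86-fold.

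Muc16, the large transmembrane mucin that binds mesothelin, ran from -1.73 in mouse 4 through a median of -0.76 to 0.66 in mouse 8. As for Msln, mice 4 to 7 were the lowest, at -1.73, -1.21, -1.41 and -1.28, with mouse 2 next at -1.11. The range was 5.22-fold.

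Upk3b, a uroplakin first known from the bladder surface, ran from -1.24 in mouse 4 through a median of -0.67 to 0.73 in mouse 8. Mouse 2, at -0.98, was below mice 5 and 7. Upk1b, a tetraspanin of the uroplakin group, ran from -0.87 in mouse 4 through -0.49 to 0.57 in mouse 8. Its probe had 10 spots on each array, and within an array their log2 ratios had an SD of 0.0532 to 0.129, against an SD of 0.562 between the 10 mice.

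Lrrn4, a transmembrane protein with leucine-rich repeats, ran from -1.15 in mouse 6 through -0.52 to 0.59 in mouse 8, and mouse 2 (-0.98) was again among the lowest. Gpm6a, a membrane glycoprotein also known from neurons, ran from -1.68 in mouse 4 through -0.53 to 0.59 in mouse 8. In Gpm6a alone of the 7, mouse 2 (-0.36) was above mouse 3 (-0.71).

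Wt1, a zinc finger transcription factor of mesothelial and kidney cells, had the smallest SD of the log2 ratio among the 10 genes, 0.448. It ran from -0.72 in mouse 4 through -0.14 to 0.73 in mouse 10, a 2.73-fold range, close to the 2.7-fold range of Upk1b. Mice 5, 6 and 7, at -0.22, -0.25 and -0.10, overlapped the other mice, and mouse 2 was at -0.49.

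Krt8 probe 1 ran from -2.25 in mouse 6 through a median of -1.21 to 1.91 in mouse 2, and its Cy5 brightness from 134 to 3860. The next mouse after mouse 2 was mouse 1 at -0.23. Probe 2 kept mouse 6 lowest (-1.25) and mouse 2 highest (1.63), with a range of 7.33-fold against 17.9-fold by probe 1. Its Cy5 brightness was lower, 62.5 to 875, and the difference of probe 1 minus probe 2 ran from -1.21 in mouse 4 to 0.28 in mouse 2. The ranges of the 2 probes depended on the scaling. By the scanner's log ratio, in log2, probe 2 ran from -2.66 in mouse 6 to 1.96 in mouse 2. Probe 1 ran from -2.87 to 1.98 in the same mice.

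Krt18 ran from -2.40 in mouse 4 through -1.002 to 1.85 in mouse 2, a 19-fold range, the widest of the 10 genes. Its second highest mouse was mouse 1 at 0.16. It varied between mice much as its partner Krt8 did: the difference of Krt18 minus Krt8 probe 1 was -0.26 to 0.43 over the 10 mice.

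Krt19, a type I keratin of simple epithelia and mesothelium, ran from -1.89 in mouse 4 through -0.45 to 0.65 in mouse 2. Its highest mice were mouse 2, mouse 8 at 0.22 and mouse 10 at 0.16. Its top mice were thus those of Krt8 and of the mesothelial genes together.

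**Figure D1:**
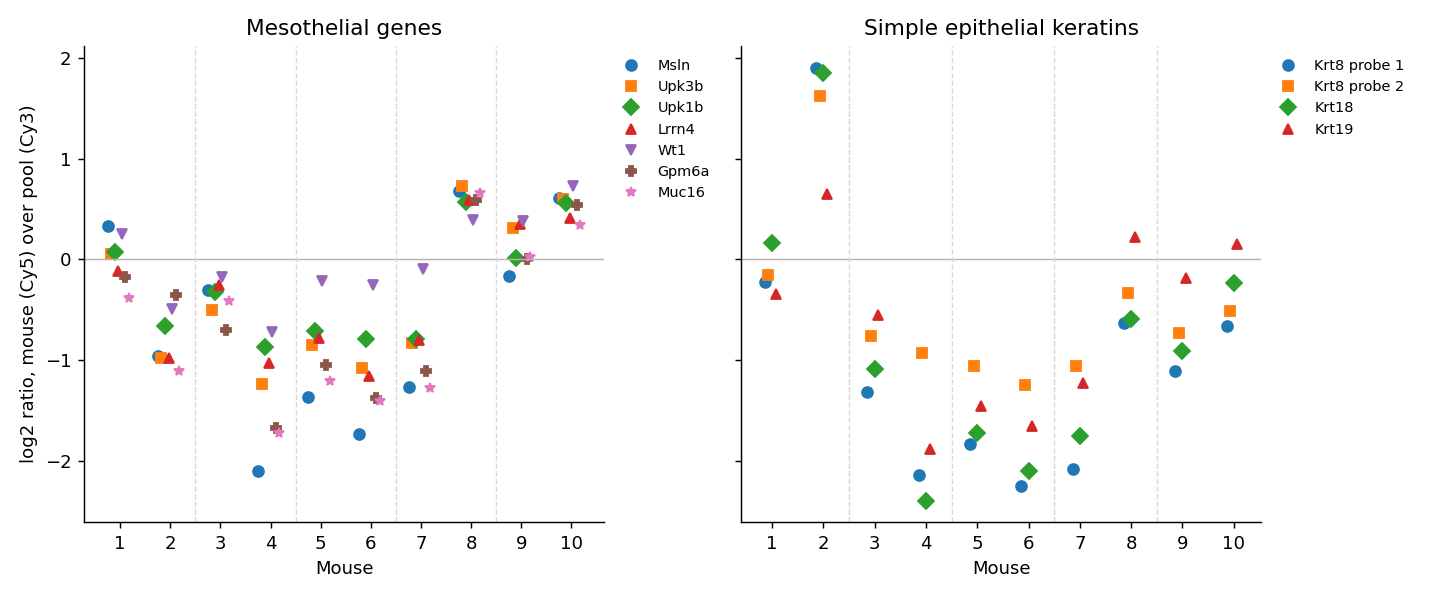
The log2 ratio of each probe (y axis, mouse in Cy5 over the pool in Cy3) is plotted for each of the 10 mice (x axis), with the mesothelial genes on the left and the keratins on the right; dashed lines part the 5 slides. In mouse 2 Krt8 probe 1 and Krt18 lie at 1.91 and 1.85 and Msln at -0.96, while mice 4 to 7 are low in both panels.

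Whether the samples of the mice differed by more than the repeated measurement of the pool was tested for each probe. The variance of log2 Cy5 was compared with that of log2 Cy3 over the 10 arrays (Pitman-Morgan test for paired variances, two-sided, adjusted by Benjamini-Hochberg). The pool was 1 RNA, so its spread lacks what dissection and RNA isolation of each sample add to Cy5. The test cannot part that from differences between the mice. All 11 probes had a larger variance in Cy5. So did 59.7% of the 25049 probes tested, so the call itself is common here, and the size of the spread tells more. The SD of log2 Cy5 was 1.02 for Msln against 0.03 in Cy3, 30.5 times as large (adjusted p = 1.35e-08). For Krt18 it was 1.32 against 0.07 (adjusted p = 1.71e-08) and for Krt8 probe 1 it was 1.31 against 0.08 (adjusted p = 9.13e-08). Wt1 had the smallest ratio, 0.48 against 0.09 or 5.36 times (adjusted p = 0.000202). The SD of the log2 ratio had a median of 0.797 over the 10 genes, against 0.177 over all expressed probes. By that SD, Wt1 lay at percentile 87.6 of the expressed probes, Msln at 98.7 and Krt8 probe 1 and Krt18 at 99.6.

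**Figure D2:**
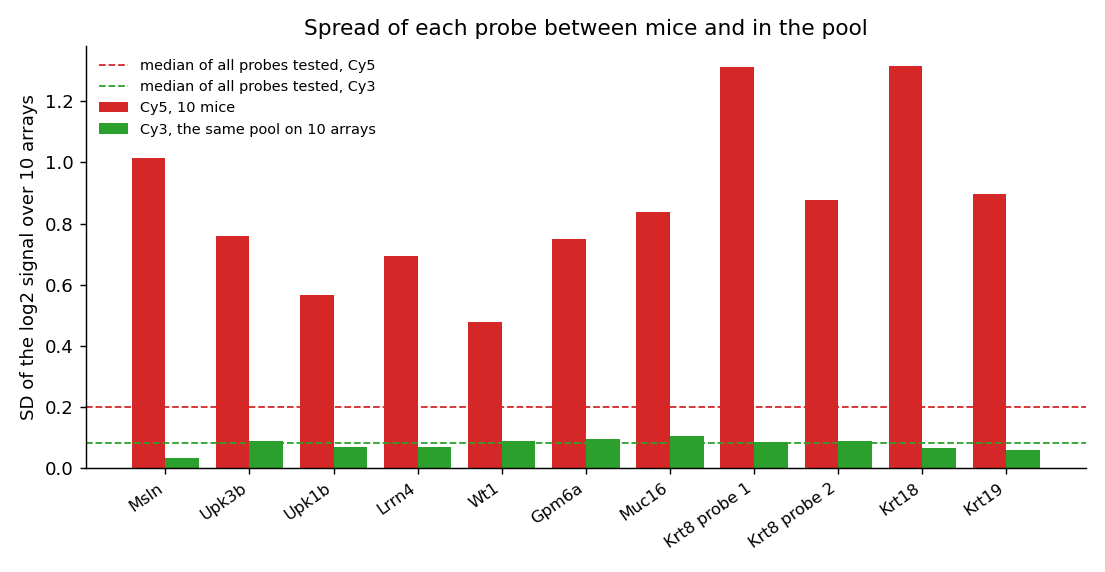
The SD of the log2 signal over 10 arrays (y axis) is given as bars for each probe (x axis), in red for Cy5, the 10 mice, and in green for Cy3, the same pool on every array, with the medians of the 25049 probes tested as dashed lines (0.199 and 0.0813). Every red bar stands above its green one, from 0.48 for Wt1 to 1.32 for Krt18, and the green bars lie between 0.03 (Msln) and 0.10 (Muc16).

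Each slide held 2 of the mice. Differences between slides were tested on the log2 ratios by a moderated F test in limma. None of the 11 probes was called (adjusted p = 0.697 for each), nor was any of the 27716 probes, of which 4.1% had an unadjusted p below 0.05. The 3 keratin probes Krt18, Krt8 probe 1 and Krt8 probe 2 were among these, with unadjusted p of 0.0152, 0.0287 and 0.0472.

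Mice that shared a slide differed in the same directions. On slide 1, mouse 2 was above mouse 1 by 2.13 (log2) for Krt8 probe 1, 1.69 for Krt18 and 1.00 for Krt19. For Msln the difference of mouse 2 minus mouse 1 was -1.29, and for the other mesothelial genes it was -1.04 (Upk3b) to -0.19 (Gpm6a). On slide 4, mouse 8 was above mouse 7 for all 11 probes, by 0.49 (Wt1) to 1.95 (Msln). On slide 2, the difference of mouse 4 minus mouse 3 was -1.79 for Msln, -1.30 for Krt18 and -0.17 for Krt8 probe 2, the smallest. Both patterns thus appeared within slides.

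Mice 4 to 7 were the 4 lowest for 7 of the 10 genes, against 21.3% of all expressed probes. The exceptions were Upk3b and Lrrn4, where mouse 2 was below 1 or more of them, and Wt1. The count was also 7 without background subtraction, 5 by the scanner's log ratio, 4 by the deposited values and 2 with median centring. These mice were parted by the first component, which rests on all expressed probes, so this count is a description and was not tested.

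Mouse 2 was the highest of the 10 for the 3 keratins and for none of the mesothelial genes (10.9% of all expressed probes). Among the 6 mice outside mice 4 to 7 it was the lowest for 6 of the 7 mesothelial genes, all but Gpm6a (19.6% of all expressed probes). With median centring this held for 2 of the 7, and under the 3 other scalings for 6. Under each of these scalings mouse 2 stayed the highest for the 3 keratins. The mean log2 ratio of the 7 mesothelial genes in mouse 2 was -0.79, while that of Krt8 and Krt18 was 1.88. The difference of the keratin mean minus the mesothelial mean was 2.67 in mouse 2 and -0.04 in mouse 1. In the other 8 mice it stayed between -1.21 and -0.82, although the mesothelial mean itself ran from -1.34 in mouse 4 to 0.60 in mouse 8. Mice 1 and 2, which were off that line, shared slide 1.

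**Figure D3:**
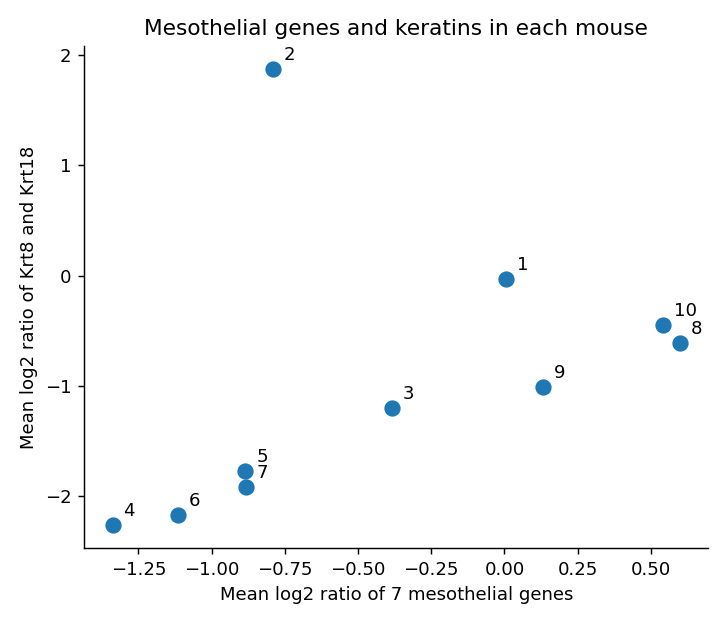
Each point is 1 of the 10 mice, labelled by its number, with the mean log2 ratio of the 7 mesothelial genes on the x axis and that of Krt8 and Krt18 on the y axis. Mouse 2 lies at -0.79 and 1.88, above all others, mouse 1 lies at 0.01 and -0.03, and the other 8 run from mouse 4, at -1.34 and -2.27, to mice 8 and 10 at the right.

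Which genes varied across mice as Msln did was asked by fitting every expressed probe on the Msln log2 ratio with limma. Since Msln, Krt8 and the first component all parted mice 4 to 7 from the rest, the fit was made within the other 6 mice. No probe of 27715 was called in either direction, with 2.91% above 0 and 4.1% below 0 at an unadjusted p below 0.05. The 6 other mesothelial genes all had slopes above 0, each given as log2 per log2 of Msln ± SE. The slope was 0.97 ± 0.16 for Upk3b, 0.88 ± 0.17 for Muc16 and 0.80 ± 0.17 for Lrrn4. It was 0.75 ± 0.10 for Upk1b and 0.62 for both Gpm6a and Wt1 (± 0.19 and ± 0.13). Their adjusted p ran from 0.289 (Upk1b) to 0.545 (Gpm6a). The slopes of Krt8 probe 1 and Krt18 were -1.06 ± 0.52 and -0.89 ± 0.49 (adjusted p = 0.752 and 0.781). With median centring they were -0.19 and -0.07. They turned with mouse 2: without it they were 0.73 and 0.76 (adjusted p = 0.894 for both).

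The genes outside the 10 with the smallest p and a slope above 0 on Msln were Chst4, Sctr, Ifitm6, Slc39a8 and Nkain4, with slopes of 0.91, 0.81, 0.67, 1.18 and 0.52 and adjusted p of 0.289 to 0.527. Chst4 is a sulfotransferase, Sctr the secretin receptor, Slc39a8 a metal ion transporter and Nkain4 a partner of the sodium pump that was on the list of other mesothelial markers. Those with a slope below 0 were Dclk3, Folh1, C7, Gm13304 and Tbx2, with slopes of -0.83, -0.57, -0.91, -1.30 and -0.56 and adjusted p of 0.289 to 0.527. Mouse 2 was the highest of the 10 mice for each of these 5, which include the complement component C7 and the transcription factor Tbx2.

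The same fit on Krt8 probe 1 called 431 probes rising (1.56% of 27715) and 40 falling (0.144%). At an unadjusted p below 0.05 these shares were 8.61% and 4.69%. Of the other member probes it called the partner keratin Krt18, with a slope of 0.91 ± 0.06, and Krt8 probe 2, with 0.77 ± 0.05 (adjusted p = 0.00138 for both). Krt19 had a slope of 0.29 ± 0.09 (adjusted p = 0.184). The mesothelial genes had slopes of -0.37 (Lrrn4) to -0.07 (Gpm6a), none of them called (adjusted p of 0.205 to 0.873). Without mouse 3, 4 of the 7 were called, with slopes of -0.50 for Lrrn4, -0.53 for Upk3b, -0.35 for Wt1 and -0.49 for Muc16 (adjusted p = 0.00633, 0.0116, 0.021 and 0.043). Calls were more common over all probes in that fit too, with 1050 rising and 398 falling. It still held mouse 2, and the slopes of the 7 were above 0 when mouse 2 was left out instead.

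These calls also depended on the scaling. Rising and falling counts were 32 and 0 with median centring in place of loess, 3 and 0 by the deposited values and 1 and 0 by the scanner's log ratio, where Krt18 was not called (adjusted p = 0.069).

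The calls rested on mouse 2 as well. Without it no probe was called in either direction, and the slopes became 1.13 for Krt18 (adjusted p = 0.601) and 0.58 for Krt8 probe 2 (adjusted p = 1). The slope of Msln on Krt8 was -0.31 with mouse 2 and 0.79 without it (adjusted p = 0.44 and 1), and all 7 mesothelial genes changed sign in this way. Without mouse 3, the lowest of the 6 for Krt8 probe 1, the counts were 1050 rising and 398 falling. Without mouse 8, 9 or 10 they were 238 to 285 rising and 11 to 16 falling, and without mouse 1 they were 406 and 21.

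**Figure D4:**
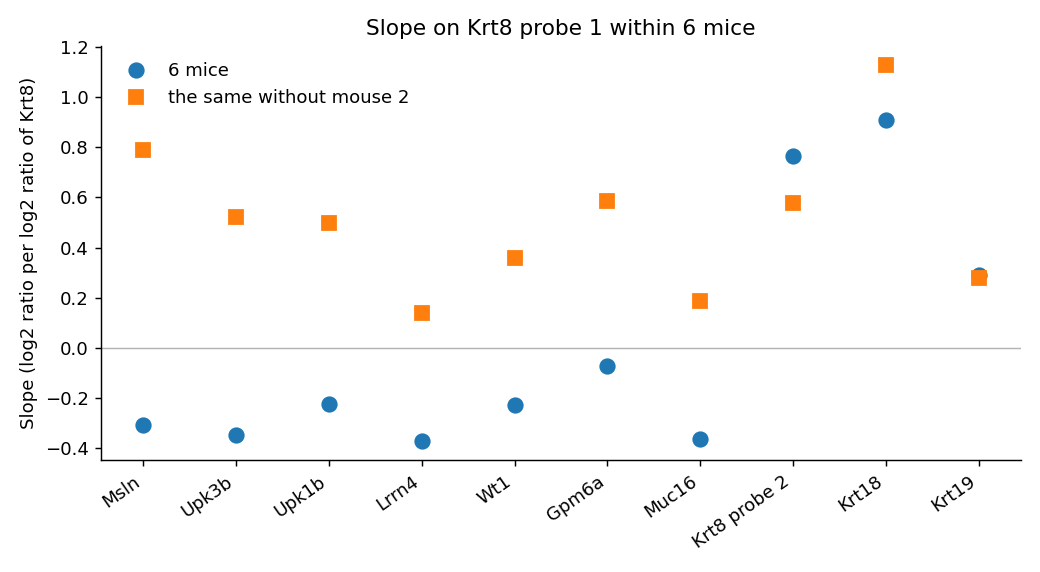
The slope of each probe on Krt8 probe 1 (y axis, log2 ratio per log2 ratio) is given for 10 probes (x axis), with circles for the fit in 6 mice and squares for the same fit without mouse 2. Krt18 stays above 0 (0.91 and 1.13), while Msln goes from -0.31 to 0.79.

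Among the genes outside the 10 that rose with Krt8 at the smallest p were Aldoc, Serinc2, Mpzl2 and Hdc, with slopes of 0.59, 0.45, 0.62 and 0.78 and adjusted p of 0.0057 to 0.00769. Mpzl2 encodes an epithelial adhesion protein, Aldoc a glycolytic aldolase and Hdc the enzyme that makes histamine. Mouse 2 was the highest mouse for each. Those that fell were Slc1a5, Srsf2, Pdia6, Phlda3 and Tuba1a, with slopes of -0.36 (Srsf2) to -0.26 (Phlda3) and adjusted p of 0.0118 to 0.014.

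Of the 14 other mesothelial markers, 13 were expressed and Calb2 was not. All 13 varied more in Cy5 than in Cy3 (59.7% of all probes tested), and mice 4 to 7 were the 4 lowest for 8 of them (21.3% of all expressed probes). Their median SD was 0.411, below that of the 7 genes described, 0.737. Rspo1, a secreted activator of Wnt signalling, ran from -2.04 in mouse 4 to 0.65 in mouse 2, and Nkain4 from -1.47 in mouse 4 to 0.64 in mouse 10. The mean of the 13 was -0.18 in mouse 2, against -0.78 to -0.56 in mice 4 to 7 and -0.19 to 0.33 in the other 5. Among the 6 mice outside mice 4 to 7, mouse 2 was the lowest for 9 of the 13 (19.6% of all expressed probes). It was the highest of all 10 for Rspo1, which raises its mean.

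Of the 14 other markers of simple epithelium, 6 were expressed, and mouse 2 was the highest for 4 of these (10.9% of all expressed probes). Their mean was 0.78 in mouse 2 and -0.64 to -0.19 in the others. Perp, a protein of desmosomes that was well above background on 9 arrays, lay at 1.73 in mouse 2 and at -1.60 to -0.35 in the others, and Cldn7, a claudin of tight junctions, at 1.44 against -1.10 to -0.46. Krt7, on both marker lists, went the other way, with mouse 2 the lowest at -0.69.

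Some defining genes of simple epithelium were not expressed by the rule of 5 arrays, and are named here after their values were seen. Cdh1, the adhesion protein E-cadherin, and Dsp, desmoplakin, were well above background in mouse 2 and in no other mouse. Their log2 ratios there were 1.31 and 1.92. Epcam, an epithelial adhesion protein, was so in mice 2 and 10, with 1.44 in mouse 2. No level is given for these genes in the other mice.

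The list of ciliated and efferent duct epithelium, 12 genes with 7 expressed, had mouse 2 as the highest for all 7 (10.9% of all expressed probes). Its mean was 1.46 in mouse 2 and -1.11 to -0.61 in the others. Mia1 lay at 2.38 in mouse 2 and -2.48 to -2.01 in the others, and Lrp2, the endocytic receptor megalin, at 2.28 against -2.17 to -0.89. The epididymal duct list had 2 of 10 expressed, and mouse 2 was the highest for neither. The part of these cell types in the keratin levels of mouse 2 was not tested.

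**Figure D5:**
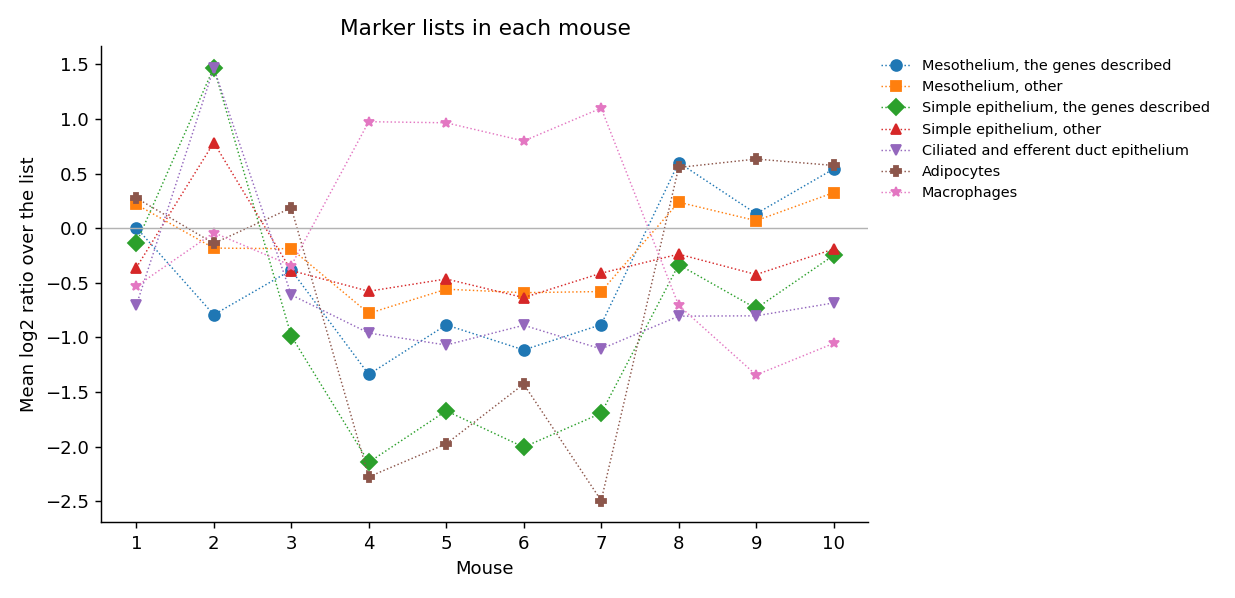
The mean log2 ratio of each marker list (y axis) is plotted for each of the 10 mice (x axis). The simple epithelial lists and the ciliated and efferent duct list peak in mouse 2 (1.47, 0.78 and 1.46), and in mice 4 to 7 the adipocyte list is low (-2.49 to -1.43) and the macrophage list high (0.80 to 1.10).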

How the data were processed

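Total RNA of 10 epididymal WAT samples was hybridised by the authors to Agilent two-colour arrays, 5 slides with 2 arrays each. The authors deposited, per array, scanner output (Agilent Feature Extraction 10.7.3.1, from the submitters' processing notes) with intensity values per spot and dye and a log10 ratio of Cy5 over Cy3. They also deposited a table of log2 values for 30733 spots. Its columns followed log2 Cy5 of their arrays (r of 0.994 to 0.999) and all had a median of 8.52. Its normalization is not given in the sources used here, and it served only as an alternative, with each probe centred.

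Mean intensity was corrected by normexp (offset 50) and normalized by loess within arrays, and channels by Aquantile between arrays (limma 3.58.1, R 4.3.3). Of 59305 non-control spots, those of 1 probe were averaged. A probe was expressed if the scanner software marked Cy5 as well above background on 5 or more arrays, with a value on all 10. Tests used a threshold of 0.05, and each was tested on simulated data. Number of arrays and signal over background limit the precision. Named besides the 10 genes were the 2 most variable genes of each marker list and the 5 with the smallest p per direction on Msln and Krt8, of which 1 is not reported here. The members, lists and tests were chosen with earlier results of these data known. Alternatives covered background, normalization, filter, slide and each mouse left out.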

Additional observations from a re-analysis of the deposited data

Results flagged for a closer look

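Krt8 stood out in mouse 2. For each probe, the gap between the most extreme mouse and its nearest neighbour was divided by the range over the 10 mice and set against Dixon's critical value for 10 samples, which chance passes in about 1 of 20 groups. Krt8 probe 1 (gap of 0.512 of the range) and Krt8 probe 2 (0.622) passed it, both with mouse 2 as the highest. Krt18, at 0.398, and Krt19, at 0.17, had mouse 2 as the highest too and did not pass. The other 7 probes had gaps of 0.0499 (Upk1b) to 0.232 (Wt1). These gaps are those of the main log2 ratios, and the passes hold for that scaling alone. By the scanner's log ratio, in log2, Krt8 probe 1 lay at 1.98 in mouse 2, -0.19 in mouse 1 and -2.87 in mouse 6. Mouse 2 was also the highest for the 7 expressed genes of the ciliated and efferent duct list (10.9% of all expressed probes) and for Perp and Cldn7. The part of these cell types in the levels of Krt8 was not tested.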

How the results depend on the processing

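All 11 probes kept a larger variance in Cy5 under the 6 other settings and without each mouse, and no slide effect was called under any of 6. The number of all probes with the larger variance in Cy5 went from 14961 to 4684 without normalization between arrays, and was 13482 to 14414 without single mice. With the larger variance in Cy3 it was 40, but 17 when all 10 arrays had to pass and 544 with no filter (35 to 43 without single mice). Slide effects at an unadjusted p below 0.05 went from 1136 probes to 2718 with median centring and 2437 with no filter. On Msln no probe was called under 7 settings, and leaving out single mice gave 0 to 2 in each direction and 0 to 1 member probes, Upk3b without mouse 9 (slope 1.03, adjusted p = 0.043). On Krt8, 431 probes rose and 40 fell. The counts were 342 and 26 without background subtraction, 32 and 0 with median centring, 260 and 30 when every array had to pass, 970 and 117 unfiltered, 1 and 0 by the scanner's log ratio and 3 and 0 by the deposited values. By the scanner's log ratio 1 member probe was called in place of 2, since Krt18 had an adjusted p of 0.069. With Krt8 probe 2 as the covariate, a setting chosen after seeing the data, 533 rose and 77 fell. Without single mice 0 to 1050 rose, 0 to 398 fell and 0 to 6 member probes were called, with 0 in each case without mouse 2. Without mouse 2 the slopes on Msln turned to 0.728 (Krt8 probe 1, from as low as -1.35 with other single mice left out), 0.417 (Krt8 probe 2, from -1.11), 0.757 (Krt18, from -1.17) and 0.615 (Krt19, from -0.32). Those on Krt8 turned to 0.788 (Msln, from -0.44), 0.522 (Upk3b, from -0.529), 0.498 (Upk1b, from -0.344), 0.14 (Lrrn4, from -0.502), 0.359 (Wt1, from -0.348), 0.586 (Gpm6a, from -0.229) and 0.188 (Muc16, from -0.492). With median centring Krt19 on Msln turned to 0.315 and Gpm6a on Krt8 to 0.118. The causes were not tested. The SD of Upk1b went from 0.562 to 0.931 by the scanner's log ratio and that of Krt8 from 1.25 to 0.827 by probe 2, and other SDs moved less. No paired analysis was possible because all mice belonged to 1 group.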

Other observations

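Other cell types of the fat pad also set mice 4 to 7 apart. Across the 5 endothelial genes the mean log2 ratio was -0.73 to -0.41 in these mice, and -0.04 to 0.26 elsewhere. Cdh5, the cadherin of endothelial junctions, ran from -1.38 in mouse 4 to 0.55 in mouse 8, and the receptor Tie1 from -1.22 to 0.36 in the same mice. The 4 blood genes had means of -1.97 to -1.33 in mice 4 to 7 and -0.84 to 0.52 in the others, with Hba-a1 (alpha globin) from -2.42 in mouse 7 to 0.71 in mouse 8 and Hbb-b1 (beta globin) from -1.93 in mouse 5 to 0.53 in mouse 8. Mouse 8 was thus the highest mouse for these 4 genes as for Msln. The macrophage list was led by Trem2, a lipid receptor (-2.43 in mouse 9 to 1.52 in mouse 4), and Emr1, a surface receptor of macrophages (-1.52 in mouse 9 to 1.55 in mouse 7). The 7 genes of fibroblasts and progenitors overlapped, with means of -0.13 to 0.19 in mice 4 to 7 and -0.44 to 0.11 in the others. Of them, Lum ran from -0.91 in mouse 9 to 0.91 in mouse 7 and Col1a1 from -1.04 in mouse 9 to 0.66 in mouse 6.

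Sperm genes had 3 of 6 expressed, and mouse 2 was the highest for all 3 (10.9% of all expressed probes). Prm1, a protamine that packs sperm DNA, lay at -1.37 in mouse 2 and -4.11 to -2.93 in the others, and Prm2 at -0.79 against -2.26 to -1.93. The Prm1 probe was well above background on 8 of the 10 arrays, and that of Prm2 on all 10. Of the stratified keratins 3 of 7 were expressed, and the list mean was -0.19 in mouse 2 against -0.07 to 0.01 elsewhere, while Krt10 ran from -0.34 to 0.24 and Krt5 from -0.14 to 0.31. Of the epididymal duct genes, Rnase10 ran from -0.03 to 1.11 and Lcn12 from -0.21 to 0.40. Of the urothelial genes, other uroplakins of the bladder, only Upk1a of 3 was expressed, at -0.06 to 0.28.

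The transcription factor Foxj1, which switches on genes of motile cilia and was named after its values were seen, was well above background in mice 2, 5, 7 and 9. It lay at 1.95 in mouse 2.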
